A study of Mus musculus with 6 samples.

Results

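The genes described here encode the machinery of autophagy and the lysosome. They were taken from a list of 48 names, of which Vps34 is an older name of Pik3c3, so that 47 genes were sought by current symbol or synonym among the probe sets of the array. A probe set combines the short probes designed for a transcript. Of the 47 genes, 45 were measured by 106 of the 45037 probe sets, while Optn had no probe set under its name and Bnip3l only probe sets shared with a pseudogene. Where several probe sets measured a gene, the brightest on average stood for it, and 18193 genes in all were represented in this way. Muscle RNA of 3 mice labelled wild type (WT) and 3 labelled SIRT6KO (KO), all of the 129SvJ strain background, was hybridized to 1 Affymetrix Mouse Genome 430 2.0 array per mouse. SIRT6 is a chromatin-bound, NAD-dependent deacylase. The labels do not name the muscle, the age or sex of the mice, or the way in which Sirt6 was inactivated, and no treatment is named for either group. The comparison asks how transcripts of this machinery differ between the labels.

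Autophagy encloses cytoplasm, protein aggregates or organelles in a double membrane that fuses with the lysosome, where the content is digested. The ULK1 kinase complex starts the process, the class III PI3-kinase complex marks the membrane, and a conjugation system attaches ATG8-family proteins (the LC3 and GABARAP proteins) to it, to which cargo receptors bind. In skeletal muscle the pathway is active in fasting and wasting, where FoxO transcription factors are known to raise the transcription of several of its genes, and TFEB and TFE3 drive genes of the lysosome.

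Intensities are deposited on a linear scale. Differences were tested on log2(intensity + 16) with limma, a linear model with a shared estimate of variance, so folds are on that scale and understate changes of dim probe sets. The hybridization controls, transcripts added in fixed amounts, read 1.93 times as bright in WT replicate 1 as in WT replicate 2, against 0.996 to 1.02 times in the other 4 arrays. KO replicate 3 stood apart from the WT arrays, with correlations of 0.865 to 0.881 over probe sets above the median level, against 0.962 to 0.966 among the WT arrays. The Sirt6 probe set did not check the labels, at 15.1 to 23.2 in WT and 13.7 to 22.6 in KO. Xist, the RNA that coats an inactive X chromosome, read 24.5 to 31.3 in WT and 715.4 to 1165.7 in KO (the brightest of its 3 probe sets), and the Y-linked Eif2s3y 44.5 to 77.1 and 1.1 to 4.1, so genotype and sex cannot be told apart in any difference given here. Markers of muscle fibres were present in every array, with all 12 measured and none averaging below 16 in either group. In bulk RNA, fewer cells of a type and less RNA per cell cannot be told apart.

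A small set of members stood far above the WT arrays in KO replicates 2 and 3. The other members had average folds under 2 by their brightest probe sets. Of the 45 genes 31 were higher on average in KO and 14 lower (30 and 15 after quantile normalization), with a median fold of 1.17, whereas 46.8% of all genes were higher and their median fold was 0.988. Members at least 2-fold higher on average numbered 6 of 45 (13.3%), against 0.901% of all genes and 1.43% of genes above the median level, where all 45 members lay. These were Ulk1, Map1lc3b, Gabarapl1, Sqstm1, Bnip3 and Ctsl, and no member was 2-fold lower. They cover a starting kinase, 2 ATG8 proteins, 2 receptors and a lysosomal protease.

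After limma, with p-values adjusted by Benjamini-Hochberg across the whole array, 0 of the 106 member probe sets passed at 0.05, where 0.00888% of all probe sets did (0.00444% as higher). The lowest adjusted p among the member genes was 0.529, for Ulk1. At an unadjusted p under 0.05 there were 15 member probe sets, against 8.56% of all probe sets, and 8 of the 45 genes, against 9.8% of all genes. All KO arrays lay above all WT arrays for 7 members, against 4.51% of all genes, and all KO arrays lay below for 2, against 8.33%. When limma was refitted to the 22518 probe sets above the median level, 0.351% of them passed, again with 0 members. Of the 87 member probe sets there, 17 had an unadjusted p under 0.05, against 12.2% of all. The lowest adjusted p there was 0.0749, for Ulk1. The number of arrays limits the precision.

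Array by array, KO replicate 3 held the highest value of 23 of the 45 members (51.1%), against 22.6% of all genes. WT replicate 1 held the highest value of 17 members (37.8%, against 36.1%). KO replicate 1 was inside the WT range for 27 members (60.0%, against 53.8%). The members' median log2 distance from the WT mean was -0.07, 0.18 and 0.42 in KO replicates 1, 2 and 3, and 0.25, 0.04 and -0.26 in WT replicates 1, 2 and 3. All genes had medians between -0.10 and 0.03 in the KO arrays and between -0.14 and 0.15 in the WT arrays. The median log2 change of the members was 0.22 with all arrays, 0.04 without WT replicate 3 and 0.08 without KO replicate 3. The map of distances shows these values gene by gene.

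**Figure D1:**
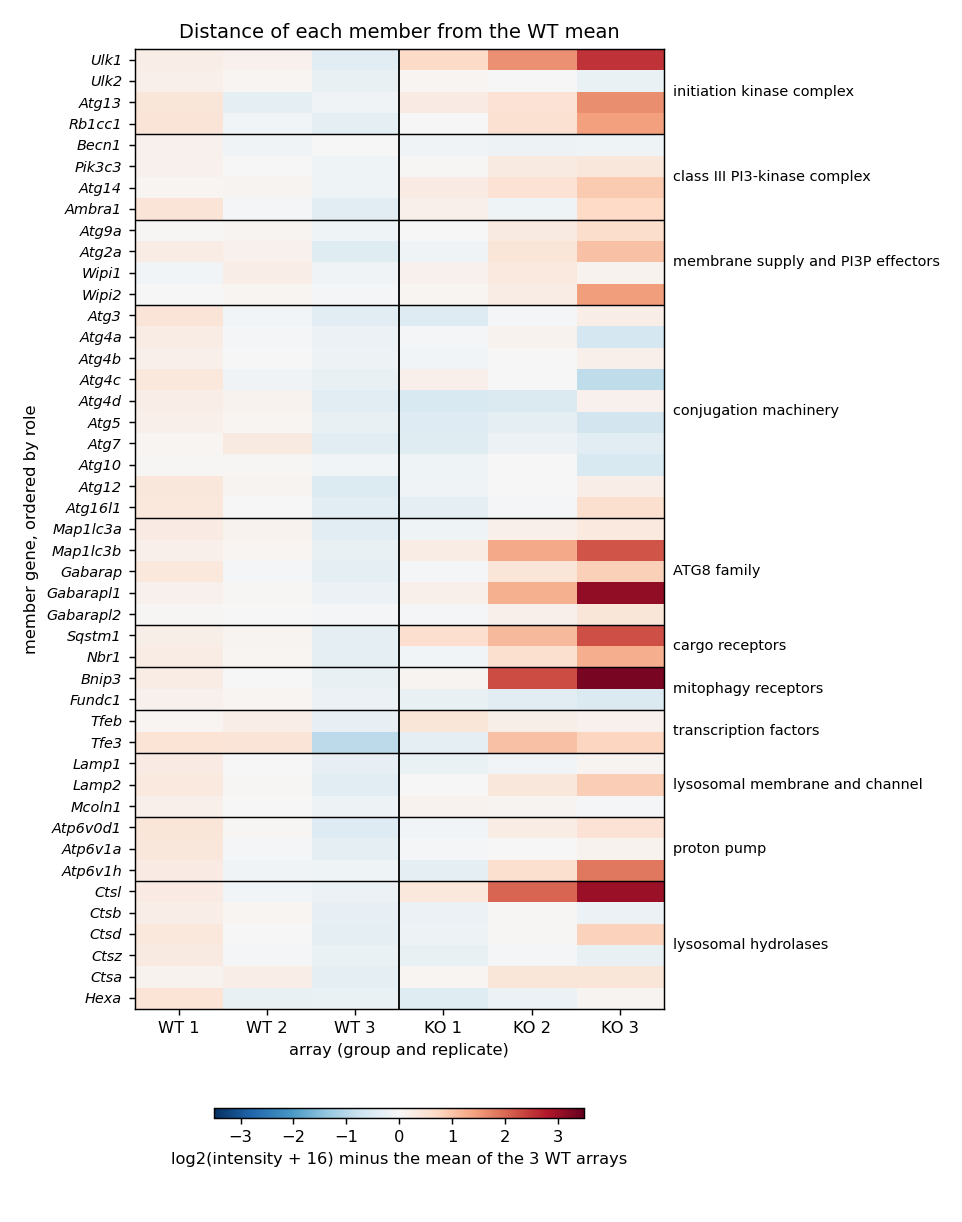
Colour map of the 45 members (rows, grouped by role) on each of the 6 arrays (columns), as log2(intensity + 16) minus the mean of the 3 WT arrays, with red above and blue below that mean. The 6 members at least 2-fold higher on average are the darkest red cells of KO replicate 3, while the conjugation machinery stays pale.

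In the complex that starts autophagy, 3 of 4 genes were higher on average and Ulk2 was not, with a median fold of 1.66 over all 4. Ulk1, the kinase that starts autophagosome formation, read 118.9, 111.5 and 73.8 in WT replicates 1 to 3 and 168.1, 333.3 and 649.8 in KO replicates 1 to 3. Every KO array was above every WT array, with the lowest KO value in replicate 1. The means were 101 ± 24.2 and 384 ± 245 (SD, n = 3 each), a fold of 3.03 with a 95% interval of 1.45 to 6.34 (limma adjusted p = 0.529). The other Ulk1 probe set separated the groups too, at 41.4 to 62.1 in WT and 71.5 to 331.5 in KO.

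Atg13, the adaptor of that complex, read 57.1, 28.1 and 33.9 in WT and 50.6, 60.8 and 151.3 in KO, so that WT replicate 1 overlapped KO replicate 1 (fold 1.75, interval 0.941 to 3.24, limma adjusted p = 0.611). Rb1cc1, its scaffold, also known as FIP200, had a fold of 1.57 and Ulk2, the paralog of Ulk1, a fold of 0.967. Ulk2 lay between 110 and 155.3 in WT and between 113.7 and 142.9 in KO.

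The class III PI3-kinase complex, which makes the lipid PI3P on the forming membrane, had 3 of 4 genes higher on average, none of which passed the test. Atg14, which directs the complex to autophagy, read 29.7, 29.8 and 22.6 in WT and 37.2, 45.9 and 65.5 in KO. The groups did not overlap, and the fold was 1.49 (interval 1.10 to 2.03, limma adjusted p = 0.545). Pik3c3, the catalytic subunit, read 36.9, 31 and 26.8 against 33.1, 43.2 and 46.4, with overlap (fold 1.20, interval 0.932 to 1.53). Becn1, the Beclin 1 subunit, and Ambra1, its regulator, had folds of 0.904 and 1.19. Of the 5 Becn1 probe sets 4 were lower on average, and the other had a fold of 1.02.

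Genes that supply membrane or read PI3P were higher on average in 4 of 4 cases, with folds of 1.15 to 1.51. Wipi2, which reads PI3P and recruits the conjugation machinery, read 41.9, 44.5 and 38.9 in WT and 44.9, 52.8 and 143.1 in KO. Its KO arrays were all above its WT arrays, but KO replicates 1 and 2 only narrowly (fold 1.51, interval 0.846 to 2.71). Atg9a, the transmembrane protein of membrane-supplying vesicles, read 261.5, 275 and 227.8 against 254.5, 319.7 and 396.5 (fold 1.24, interval 0.917 to 1.67). Atg2a, a lipid transfer protein, and Wipi1, another PI3P reader, completed the group. Of the 6 Wipi1 probe sets 5 were higher on average, and the other had a fold of 0.797.

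The conjugation machinery was lower on average in most members. Of its 10 genes 7 were lower on average and 3 higher, where 46.8% of all genes were higher, and none passed the test. Folds were 0.718 to 1.04 with a median of 0.869. The split was the same after quantile normalization and after centring each array on its median. Atg5, part of the complex that places ATG8 proteins on membranes, read 56.6, 50.3 and 37.6 in WT and 30.5, 33.9 and 25.1 in KO. All 3 KO arrays were below all WT arrays, at a fold of 0.718 (interval 0.552 to 0.934, limma adjusted p = 0.555). Its other probe sets overlapped between the groups, at folds of 0.861 and 1.01.

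Atg7, the enzyme that activates ATG8 proteins and Atg12, read 45.2, 55.6 and 28.6 against 27.1, 34.5 and 28.3, with all KO values inside or below the WT range (fold 0.790, interval 0.572 to 1.09). Atg3 and Atg10, which carry the activated proteins, had folds of 0.947 and 0.857. The proteases Atg4a, Atg4b, Atg4c and Atg4d, which trim and release ATG8 proteins, had folds of 0.882, 1.02, 0.844 and 0.811. Atg12 and Atg16l1, partners of Atg5, lay at 1.03 and 1.04. Among probe sets above the median level, those of Atg12 and of Atg4b differed in direction. Below that level the other probe sets of Atg7 had folds of 1.02, 1.22 and 1.10, that of Atg4c 1.23 with all KO arrays above all WT arrays (2.9 to 3.6 against 6 to 8.6), and that of Atg4d 1.04.

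**Figure D2:**
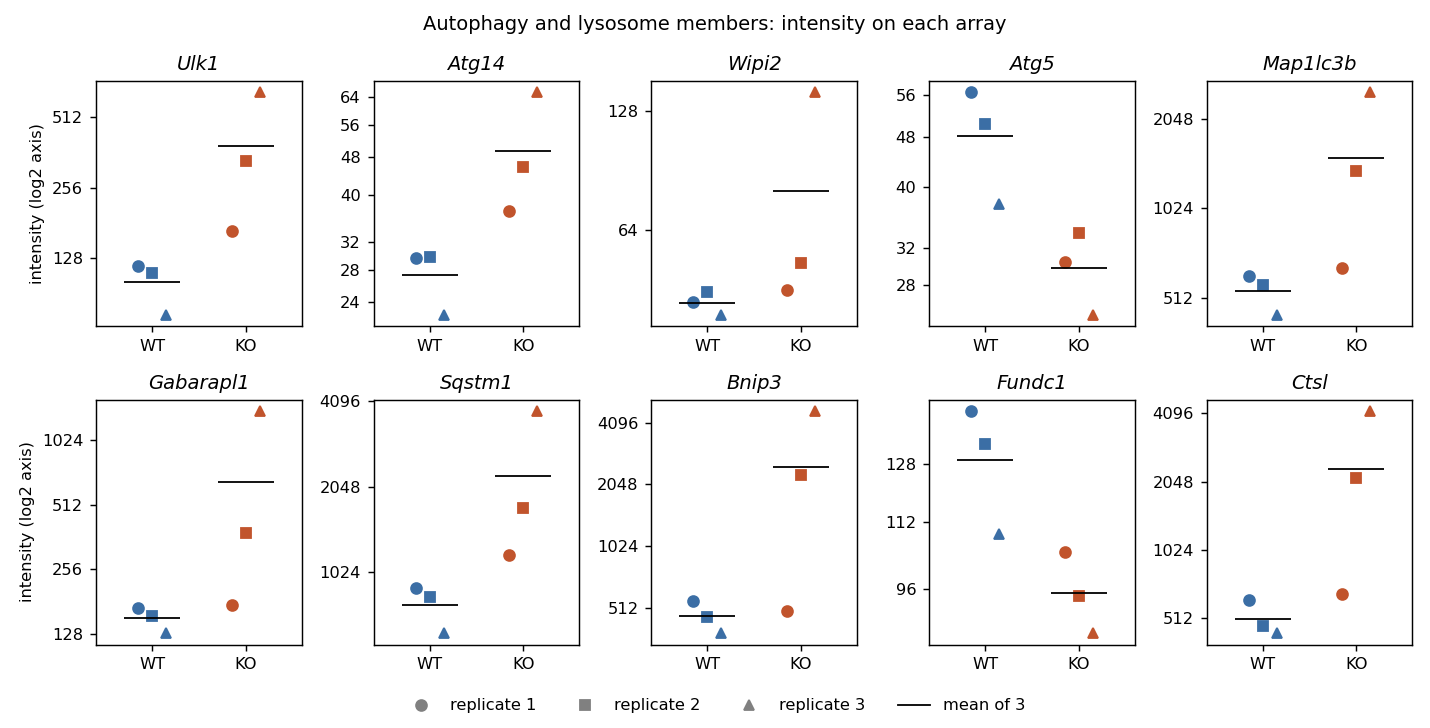
Deposited intensity on each array (log2 axis, different range per panel) of the 10 members whose groups did not overlap or whose unadjusted limma p was under 0.05; symbols mark replicates and lines the mean of 3. KO replicate 1 lies beside the WT arrays for Bnip3, Ctsl, Gabarapl1, Map1lc3b and Wipi2, and KO replicate 3 is highest for the 8 members that were higher in KO.

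The 5 ATG8 genes had folds from 1.09 to 2.85. Map1lc3b (LC3B), a membrane-bound marker of autophagosomes, read 603.7, 566 and 447.9 in WT and 642.9, 1367.6 and 2518.2 in KO. The groups did not overlap, although KO replicate 1 exceeded WT replicate 1 only slightly. Means were 539 ± 81.3 and 1510.0 ± 946 (SD, n = 3 each), a fold of 2.40 (interval 1.13 to 5.08, limma adjusted p = 0.564). Its other 3 probe sets had folds of 1.62, 1.89 and 1.44, all under 2, and in the first and second of these the groups overlapped.

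Gabarapl1, an ATG8 protein of the GABARAP branch, read 169.4, 154.8 and 128.7 in WT and 173.6, 377 and 1402.5 in KO, the last more than any other array by far. The fold was 2.85 (interval 0.950 to 8.53, limma adjusted p = 0.595), and its second probe set gave 3.01 with KO replicate 1 inside the WT range. In contrast Map1lc3a (LC3A) lay between 828.7 and 1346.3 in WT and between 983.8 and 1400.5 in KO, and Gabarap and Gabarapl2 had folds of 1.32 and 1.13. As log2 distances from the WT mean in KO replicate 3, Gabarapl1 stood at 3.09 and Map1lc3b at 2.20, against 0.83 for Gabarap, 0.42 for Gabarapl2 and 0.34 for Map1lc3a. In KO replicate 1 the 5 genes lay between -0.16 and 0.26. These differences between paralogs are descriptions made after the values were seen.

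Cargo receptors bind both the cargo and the ATG8 proteins. Sqstm1 (p62), the receptor of ubiquitinated aggregates, read 898.7, 832.5 and 621.4 in WT and 1174.8, 1724.9 and 3794.9 in KO. Every KO array exceeded every WT array. The means were 784 ± 145 and 2232 ± 1382, a fold of 2.52 (interval 1.28 to 4.98, limma adjusted p = 0.535). A much dimmer probe set of Sqstm1 overlapped between the groups at a fold of 1.14. Nbr1, a related receptor, read 308.6, 267.2 and 195.1 against 235.7, 377.7 and 635.6, with KO replicate 1 inside the WT range (fold 1.49, interval 0.835 to 2.67).

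Of the receptors of mitochondrial autophagy, 1 was higher and 1 lower on average. Bnip3, a mitochondrial outer membrane receptor, had the largest fold of the 45 genes. It read 549.8, 459 and 383.5 in WT and 494.8, 2276.4 and 4694.5 in KO, so that KO replicate 1 lay within the WT range while the other 2 KO arrays were far above it. Means were 464 ± 83.3 and 2489 ± 2108, a fold of 3.72 (interval 1.09 to 12.6, limma adjusted p = 0.573). Of the probe sets named to both Bnip3l and its pseudogene Bnip3l-ps, which cannot be assigned, the first read 184.3 to 279.2 in WT and 284.1 to 591.6 in KO, and the other 2 had folds of 0.995 and 1.01.

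Fundc1, an X-linked receptor of the same membrane, read 144.9, 134.2 and 109 in WT and 104.5, 94.6 and 86.7 in KO, with no overlap (fold 0.768, interval 0.604 to 0.976, limma adjusted p = 0.565). Its other probe sets had folds of 0.841 and 1.04. Among the members Atg4a, Lamp2 and Tfe3 are X-linked as well.

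Neither transcription factor of the lysosome passed the test. Tfeb read 128.9, 146.5 and 98.2 in WT and 170.2, 143.7 and 138.5 in KO (fold 1.20, interval 0.903 to 1.58), with WT replicate 2 inside the KO range. Tfe3 read 42.9, 42.3 and 6.3 against 18.3, 71 and 55.1, a wide overlap (fold 1.41, interval 0.629 to 3.14). Both factors are controlled chiefly by moving into the nucleus, which transcript levels do not measure.

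Of the lysosomal membrane genes, Lamp1, an abundant glycoprotein of that membrane, read 1444.1, 1208.1 and 969.4 in WT and 1010.3, 1118.4 and 1280.8 in KO (fold 0.950, interval 0.704 to 1.28). Lamp2, needed for fusion with autophagosomes, read 356.8, 285.3 and 210.1 against 275.3, 370 and 516.9, with WT replicates 1 and 2 inside the KO range (fold 1.33, interval 0.848 to 2.09). Its 4 probe sets were all higher on average in KO. Mcoln1, the lysosomal calcium channel, had a fold of 1.04.

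The proton pump acidifies the lysosome. Atp6v1h, a regulatory subunit of its cytosolic part, read 61.7, 41.7 and 40.7 in WT and 34.1, 78.3 and 213.5 in KO, where KO replicate 1 was the lowest of the 6 arrays (fold 1.62, interval 0.695 to 3.78). A dimmer probe set had a fold of 2.02 (interval 0.859 to 4.73), with KO replicate 1 inside the WT range. The dimmest, below the median level, had a fold of 1.145. Atp6v0d1, of the membrane part, read 134.6, 101.1 and 66.1 against 89.5, 119.9 and 146.1 and overlapped widely (fold 1.17, interval 0.760 to 1.80). Atp6v1a, the catalytic subunit, had a fold of 1.02 and turned lower on average with quantile normalization.

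Among the hydrolases Ctsl stood alone. Cathepsin L, the cysteine protease encoded by Ctsl, read 616.1, 474.7 and 439.1 in WT and 655.2, 2129.5 and 4206 in KO. The groups did not overlap, with KO replicate 1 next to WT replicate 1. Means were 510.0 ± 93.6 and 2330.0 ± 1784, a fold of 3.51 (interval 1.27 to 9.66, limma adjusted p = 0.562). A second Ctsl probe set, below the median level, had a fold of 1.09. Ctsb (cathepsin B) lay between 888.1 and 1286.5 in WT and between 939.4 and 1116.7 in KO, and Ctsd (cathepsin D) had a fold of 1.17.

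Ctsa, a carboxypeptidase that also protects other lysosomal enzymes, read 73.7, 80.7 and 48.8 against 70.4, 95.2 and 94.8 (fold 1.24, interval 0.895 to 1.71). Ctsz (cathepsin Z) and Hexa, a subunit of hexosaminidase, had folds of 0.884 and 0.881. By their representative probe sets the 5 hydrolases other than Ctsl had overlapping groups and folds between 0.881 and 1.24. A dimmer Ctsb probe set did not overlap, at 73.4, 49.8 and 51.6 in WT and 33.7, 44.9 and 30.1 in KO (fold 0.705, limma adjusted p = 0.563).

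The 6 members with the largest folds depended on which KO arrays entered the fit. Without KO replicate 1, limma on probe sets above the median level called 14 of the 87 member probe sets, all higher. It called 6.0% of all probe sets there and 3.89% as higher. The 14 belonged to 9 genes: Ulk1, Atg13, Map1lc3b, Gabarapl1, Sqstm1, Bnip3, Lamp2, Atp6v1h and Ctsl. Without KO replicate 3 it called 3 member probe sets, where 1.39% of all passed: Ulk1 (2.19-fold higher, adjusted p = 0.0105), Bnip3 (2.28-fold, adjusted p = 0.00975) and Ctsl (2.31-fold, adjusted p = 0.00608). With all arrays, or without any other array, no member passed in this fit. Folds of Bnip3 ranged from 2.28 without KO replicate 3 to 6.91 without KO replicate 1, and those of Ulk1 from 2.19 to 4.17. Without KO replicate 3, Gabarapl1 went from 2.85 to 1.64, Map1lc3b from 2.40 to 1.73 and Sqstm1 from 2.52 to 1.82, so that 3 of the 6 members were then under 2-fold and did not pass (limma adjusted p = 0.308, 0.195 and 0.112).

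**Figure D3:**
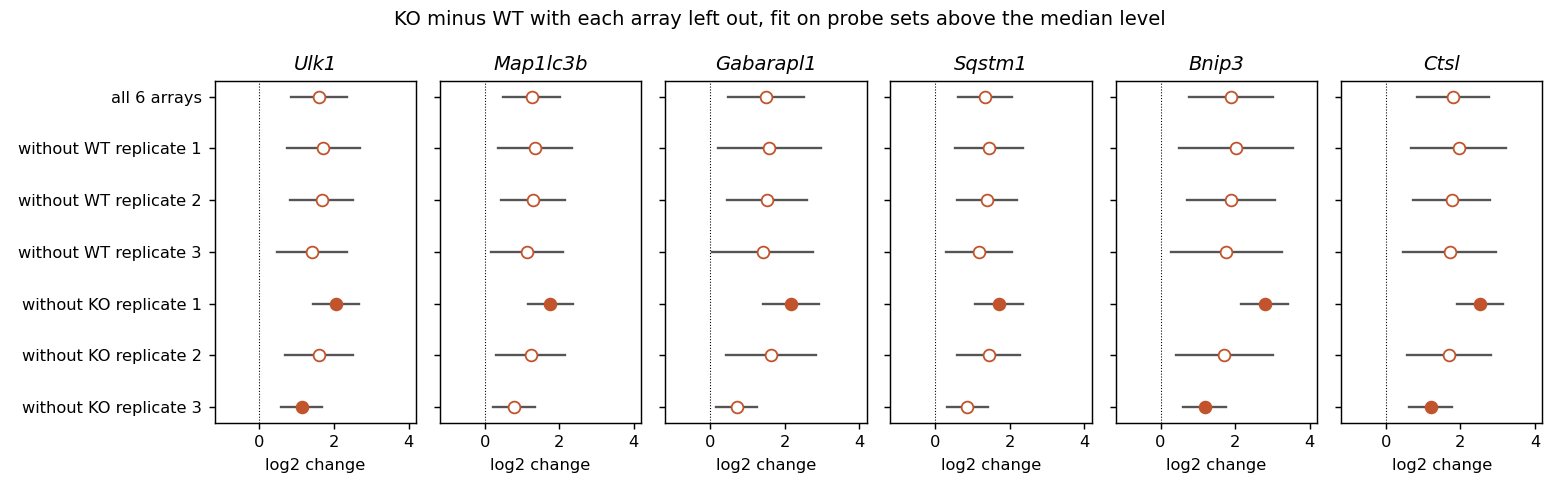
Log2 change (KO minus WT) of the 6 members at least 2-fold higher, with all 6 arrays and with each array left out, in limma fits on probe sets above the median level; bars are 95% intervals and filled points passed an adjusted p of 0.05. All 6 members are filled without KO replicate 1, and Ulk1, Bnip3 and Ctsl also without KO replicate 3.

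Promoter sequences of the members were searched for motifs that known regulators of these genes bind. TFEB and TFE3 bind the CLEAR element, whose centre is TCACGTGA, an extended form of the E-box CACGTG. Both read alike on either strand, and each TCACGTGA contains a CACGTG. RefSeq promoter windows of build GRCm38.p6, from 250 bases before to 50 after an annotated start, were found for 37 of the 45 members (44 windows). CACGTG was in 12 of the 44 windows (27.3%), 1 window for each of 12 genes, against 7.15% of all 32851 windows. TCACGTGA was in the windows of 6 members, at 13.6% of the 44, against 0.974%. The members were chosen as autophagy and lysosome genes, and TFEB and TFE3 are known to drive lysosome genes. The higher shares are therefore not independent of that choice. The FoxO core GTAAACA, searched on both strands with TGTTTAC, was in none of the 44 windows and in 3.65% of all, which says only that these letters are not in this window.

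The following windows are shown to set the letters beside the changes of the genes, 5′ to 3′ on the gene's own strand. Capitals mark TCACGTGA in the first 6 and CACGTG in the last 3.
Mcoln1 promoter, chr8:3500463-3500490, plus strand: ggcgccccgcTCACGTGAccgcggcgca
Ctsd promoter, chr7:142387909-142387936, minus strand: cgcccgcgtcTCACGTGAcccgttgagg
Ctsa promoter, chr2:164833750-164833777, plus strand: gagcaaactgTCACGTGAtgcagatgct
Atp6v0d1 promoter, chr8:105566051-105566078, minus strand: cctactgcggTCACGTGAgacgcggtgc
Atp6v1a promoter, chr16:44139374-44139401, minus strand: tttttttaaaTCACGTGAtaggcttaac
Atg3 promoter, chr16:45158747-45158774, plus strand: gagagtcgagTCACGTGAggccttaggt
Bnip3 promoter, chr7:138909597-138909626, minus strand: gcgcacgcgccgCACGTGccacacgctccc
Ctsl promoter, chr13:64370739-64370768, minus strand: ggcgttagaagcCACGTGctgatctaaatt
Atg14 promoter, chr14:47568418-47568447, minus strand: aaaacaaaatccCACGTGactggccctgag

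The 6 members with TCACGTGA had folds of 0.947 to 1.24, and none was 2-fold higher. Of the 6 members that were at least 2-fold higher, Bnip3 and Ctsl had a CACGTG in the window, and Ulk1, Map1lc3b, Gabarapl1 and Sqstm1 did not. The 3 windows above with CACGTG alone belong to genes that were higher on average in KO. Atg5 and Atg7, whose windows are not printed, also had a CACGTG and were lower, at folds of 0.718 and 0.790. The median fold was 1.10 over the 12 members with a CACGTG and 1.20 over the 25 without. A match in these letters is a description of the sequence and not a measured binding site.

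Lamp1 had 4 CACGTG within the last 73 bases before its start, more than any other member window, while its fold was 0.950. The stretch is printed for the spacing of these E-boxes, which are in capitals.
Lamp1 promoter, chr8:13159088-13159160, plus strand: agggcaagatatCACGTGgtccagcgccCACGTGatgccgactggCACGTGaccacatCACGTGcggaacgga

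Upstream sequences of Bnip3, the member with the largest fold, and of Ctsd, which holds both an E-box and the extended form at a fold of 1.17, are given for comparison over the 250 bases before the start, with the same letters in capitals.
Bnip3 promoter, chr7:138909507-138909756, minus strand: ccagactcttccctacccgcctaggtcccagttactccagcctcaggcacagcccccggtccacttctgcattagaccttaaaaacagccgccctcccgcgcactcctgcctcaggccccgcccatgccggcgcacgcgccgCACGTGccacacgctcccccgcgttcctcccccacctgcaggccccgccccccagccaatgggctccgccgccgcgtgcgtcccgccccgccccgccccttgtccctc
Ctsd promoter, chr7:142387828-142388077, minus strand: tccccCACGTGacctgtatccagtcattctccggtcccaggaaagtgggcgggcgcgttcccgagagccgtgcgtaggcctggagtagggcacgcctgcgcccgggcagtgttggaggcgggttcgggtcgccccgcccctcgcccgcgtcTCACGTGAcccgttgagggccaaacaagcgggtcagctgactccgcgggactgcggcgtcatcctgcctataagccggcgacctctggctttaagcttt

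A second list of autophagy and lysosome genes, none of them a member, was larger and less shifted. Of 122 genes 113 were measured, with 61 higher and 52 lower on average in KO and a median fold of 1.03. None passed over all probe sets by limma (lowest adjusted p = 0.247). At an unadjusted p under 0.05 there were 10 of the 113 genes, where 9.8% of all genes were. By limma above the median level 1 gene, Ostm1, fell, where 0.351% of all probe sets in that fit passed. At least 2-fold higher were 7 genes (6.19%, against 0.901% of all genes) and 2-fold lower 2 genes (1.77%, against 0.846%). All KO arrays lay above all WT arrays for 5 of the 113 genes, where 4.51% of all genes did. They lay below for 10 of the 113, where 8.33% of all genes did. Both counts are near the shares of all genes, so non-overlap of the genes named below does not set this list apart. The list's 26 lysosomal hydrolases had a median fold of 0.961, with 16 lower on average, and its 14 proton pump genes a median fold of 1.01.

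Retreg1, the receptor for autophagy of the endoplasmic reticulum, had the largest fold of both lists. It read 547.8, 482.6 and 273.9 in WT and 716.7, 2217.5 and 5665.6 in KO, with no overlap. The fold was 4.85 (interval 1.52 to 15.4, limma adjusted p = 0.532; 0.0702 above the median level), and its other probe set gave 4.92. Calcoco1, another receptor for the same organelle, read 137.2, 115.4 and 80 against 130.1, 292.3 and 457.4, with KO replicate 1 inside the WT range (fold 2.23, interval 1.11 to 4.48). Pink1, the kinase that flags damaged mitochondria, had a fold of 1.46. The median fold of the 9 cargo and organelle receptors listed was 1.34, and 8 of them had a higher KO mean.

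Of the 17 regulators, 12 were higher on average and 5 lower. Flcn, a nutrient-sensing regulator of TFEB and TFE3, read 82.9, 85.7 and 60.6 in WT and 96.6, 191.9 and 388.1 in KO, without overlap (fold 2.31, interval 1.13 to 4.72). Trp53inp2, a positive regulator of autophagy that is abundant in muscle, read 942.8, 869.3 and 660.7 against 590.3, 435.6 and 209.5, with every KO array lower (fold 0.476, interval 0.262 to 0.863, limma adjusted p = 0.559). Its dimmer probe set overlapped between the groups at 0.956. Deptor, an inhibitor of the mTOR kinase, and Lamtor2, of the lysosomal scaffold for that kinase, had no overlap either, at folds of 0.625 and 0.677. Looked at after its values were seen, Ddit4, a stress-induced mTOR inhibitor, read 359.7, 242.9 and 28 against 229.7, 713.7 and 2058.9, with KO replicate 1 inside the WT range and the other KO arrays above it (fold 4.43, interval 0.841 to 23.3).

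Ostm1, the partner subunit of the lysosomal chloride transporter ClC-7, fell. It read 164.4, 128.9 and 134.9 in WT and 56.4, 57 and 44.3 in KO, where all KO arrays, replicate 1 included, lay well below the WT arrays. The fold was 0.432 (interval 0.339 to 0.552), with an adjusted p of 0.247 over all probe sets and 0.0332 above the median level (limma). In the latter fit it did not pass without KO replicate 2 (adjusted p = 0.174), WT replicate 1 (0.352), WT replicate 2 (0.0743) or WT replicate 3 (0.155). Scarb2, a lysosomal membrane receptor, had a fold of 0.696, and the hydrolase genes Ctsh, Gusb and Galns folds of 0.602, 0.672 and 0.762, each without overlap. In the other direction, Clcn7, the gene of ClC-7, and Slc38a9, a lysosomal amino acid sensor, had all KO arrays above all WT arrays at folds of 1.21 and 1.26. Npc1, the lysosomal cholesterol transporter, had a fold of 2.61 with overlap, at 17.2 to 39.9 in WT and 29.3 to 439.4 in KO, and was named after its values were seen.

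**Figure D4:**
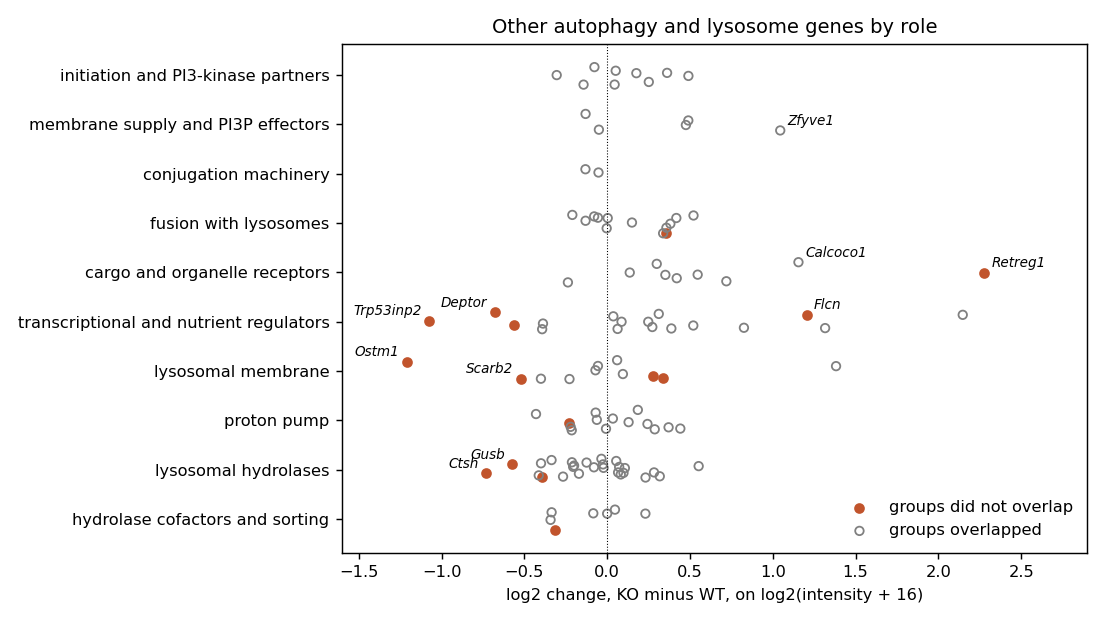
Log2 change (KO minus WT) of the 113 measured genes of the second list by role, 1 point per gene; filled points mark genes whose 3 KO and 3 WT arrays did not overlap. Retreg1 lies farthest to the right at 2.28 and Ostm1 farthest to the left at -1.21.

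**Figure D5:**
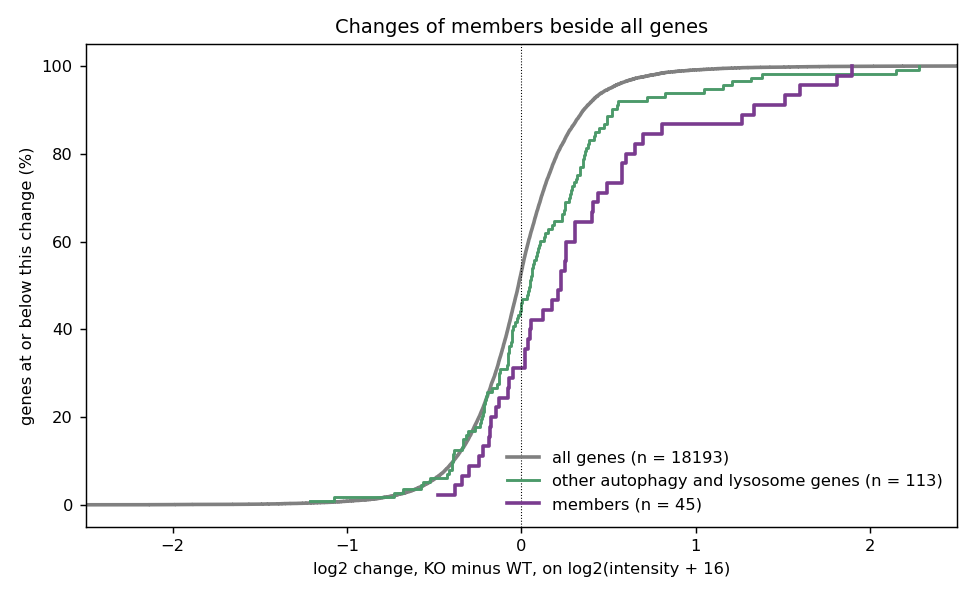
Cumulative share of genes (vertical axis, percent) by log2 change, KO minus WT (horizontal axis), for 45 members, 113 genes of the second list and 18193 genes in all. The curve of the members lies to the right of the others over most of its range, with a tail of 6 genes past a change of 1.

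Other cell types of muscle also express lysosomal genes. Macrophage markers summed to 497.1 to 783.4 in WT and 440.8 to 681 in KO over 12 of 12 listed genes, with 5 higher on average, and Itgam read 2 to 12 in all arrays. Single markers differed in both directions. Cd163 alone of the 12 did not overlap, at 10.3 to 13.7 in WT and 24.8 to 55.6 in KO (fold 1.84). Mrc1 had the lowest fold, 0.571 (interval 0.343 to 0.949), with overlap. Fibroblast markers (5 of 5) summed to 6072 to 10376.3 and 3050.5 to 6351.4, and endothelial markers (5 of 5) to 351.5 to 435.6 and 318.2 to 592. Of the fibroblast markers, Col1a1 and Lum had all KO arrays below all WT arrays, at folds of 0.387 and 0.471. Col3a1 and Dcn were lower with overlap, and Pdgfra was higher with overlap (fold 1.37). Smooth muscle markers (3 of 3) summed to 579.6 to 884.9 in WT and 179.2 to 393.3 in KO, but that sum is mostly Acta2 (fold 0.350), while Tagln and Myh11 had folds of 1.22 and 0.998. Neutrophil markers (2 of 3) summed to 11.7 to 31.1 in WT and 19.3 to 73.3 in KO, with S100a8 and S100a9 both higher on average (folds 1.54 and 1.28). Red cell markers (2 of 3) summed to 42.8 to 71.4 in WT and 29.7 to 55 in KO. White adipocyte markers (5 of 6) summed to 2991.6 to 5851.7 and 2303.9 to 4074.6, a sum that is mostly Fabp4 (fold 0.817). All 5 were lower on average in KO. Retn and Lep had all KO arrays below all WT arrays, at folds of 0.550 and 0.740, with Lep at most 19.1 in any array. Adipoq, Fabp4 and Cidec overlapped between the groups.

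The brown adipocyte markers Ucp1 and Cidea together read 1000.2 to 1701.2 in WT and 141.7 to 293.9 in KO, with Ucp1 at 5.9 and 2.3 in KO replicates 2 and 3. Both fell by limma on probe sets above the median level (adjusted p = 0.00237 and 0.0162), where 0.351% of probe sets passed. Over all probe sets neither passed (limma adjusted p = 0.436 and 0.384). The part of these cell types in the lower values of Atg5, Fundc1, Ctsh, Scarb2 and Ostm1 was not tested. Ratios of 3′ to 5′ signal, a sign of RNA quality, were 0.827 to 0.836 in WT and 0.811 to 0.846 in KO for Gapdh and overlapped for Actb as well (exact permutation test, two-sided p = 0.9 and p = 1.0, with 0.1 the smallest possible).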

How the data were processed

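Transcripts were measured on 6 arrays, 3 per group. The authors deposited linear intensities, 1 for each probe set of an array. Per the labels, TriPure served for RNA extraction and biotin as the label. Software, scaling and background correction: not given in the sources used here. Labels name the samples biological replicates but no shared litter or batch, and 0 value columns were left unused. Of 45101 probe sets, 64 controls were left out. The platform annotation gave 34945 of the rest 1 symbol, 932 several and 9160 none, and 34741 matched the RefSeq gene table. Probe sets with several symbols were not counted as members.

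Differences on log2(intensity + 16) were tested with limma 3.58.1 (R 4.3.3; lmFit and eBayes, two-sided, Benjamini-Hochberg over all probe sets), checked on simulated data. Values in every array are given for members with non-overlapping groups or an unadjusted p under 0.05, and otherwise for the lowest p until 2 per role were shown; of the second list up to 4 per role by p were eligible. Members, lists, motifs and tests were chosen with earlier results of these data known. Alternatives were quantile normalization, median centring, offsets of 1 and 64, a trended, robust variance, a block for replicate number, a level filter, stricter thresholds, averaging the probe sets of each gene, and leaving out each array. Same-numbered WT and KO arrays did not deviate together, with correlations of -0.0055, 0.0207 and -0.0401.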

Additional observations from a re-analysis of the deposited data

How the results depend on the processing

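The count of 0 member probe sets over all probe sets held under every alternative run, with a lowest adjusted p between 0.129 (without KO replicate 1) and 0.813 (without KO replicate 3) among the fits with an array left out. Above the median level the count was 0 under each other setting and 0 to 14 with an array left out, 14 without KO replicate 1 and 3 without KO replicate 3. For the second list 1 gene passed above the median level and 0 under the other settings over all probe sets. Members with all KO arrays above all WT arrays numbered 7, 5 with the probe sets of each gene averaged (4.4% of all genes), 12 with quantile normalization (8.82%) and 7 to 20 with an array left out, the most without KO replicate 1 (16.4% of all genes) and 13 without WT replicate 1 (13.1%). The cause was not tested, beyond fewer arrays making non-overlap easier.

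With the replicate number as a block (replicate block) 0 members passed in either fit (lowest adjusted p 0.62 and 0.0983), and the probe sets called in all went from 4 to 0 over all probe sets and from 79 to 85 above the median level. What a replicate number shares is not given in the labels, so whether it pairs the arrays is not known. The block ended the filtered call of Ostm1 (adjusted p = 0.0625), as did quantile normalization (0.0503) and offsets of 1 (0.174) and 64 (0.163), alternatives looked at after seeing the data. The 22 members given by array had 286 alternative values, from fits over all probe sets and the all-array fit above the median level. Of these, 283 kept direction. None changed side of the threshold, but no member passed in any of these fits, so this says little. Fits above the median level without KO replicate 1 or KO replicate 3, in which members did pass, are not among them. The 3 that turned direction were small: Lamp1 ranged from -0.22 to 0.063 (log2) and Atp6v0d1 from -0.0037 to 0.43 with an array left out.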
